A study of Mus musculus with 6 samples.

Results

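The genes described here are the Hedgehog ligand Shh, the membrane proteins Ptch1, Smo, Cdon and Boc, the transcription factors Gli2 and Gli3, and the kinesin Kif7, 8 of the 10290 genes with a probe set of their own on the arrays. They were taken by symbol, as all 13 probe sets annotated to exactly 1 of the 8 names, low signals included. The 8 names were chosen by their differences between mutant and control in these same arrays, so those differences are given as a description, without a test. Each array held RNA from the anterior presomitic mesoderm (PSM), the unsegmented tissue that forms the somites, of 3 mouse embryos pooled at embryonic day 8.75. The 3 control pools were R26R AC/AC, and the 3 mutant pools were R26R AC/AC;T-Cre, on a background labelled C57BL6/6J. All 6 pools carried the AC allele at ROSA26, and no pool carried T-Cre without it, so Cre and AC cannot be told apart. T-Cre is driven by the promoter of T (Brachyury), active in the primitive streak and the mesoderm that leaves it. AC is taken, from knowledge of the study and not from the labels, to be A-CREB, which blocks DNA binding by CREB-family factors and is made once Cre has acted.

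Hedgehog signalling works by relief of inhibition. Without ligand, Ptch1 keeps Smo out of the primary cilium, and protein kinase A, the suppressor Sufu and the cilium-tip kinesin Kif7 favour cutting of Gli3 and Gli2 into repressors. When Shh binds Ptch1 together with the co-receptors Cdon, Boc or Gas1, Smo enters the cilium and full-length Gli2 and Gli3 activate targets such as Gli1 and Ptch1 itself. In the embryo at this stage Shh is made by notochord, floor plate and gut endoderm beside the PSM, and the signal later induces the sclerotome of the somites.

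CREB proteins bind the cyclic AMP response element (CRE), so the promoters were searched for it. RefSeq's promoter table (GRCm38.p6, 250 bases before to 50 bases after an annotated start) held 6 of the 8 genes, all but Shh and Boc. The half-site TGACG, on either strand, was in 2 of these 6 promoters, those of Kif7 and Gli3, and in 20.8% of all 32851 promoters in the table. The full element TGACGTCA, which contains that half-site, was in 0 of the 6 and in 1.79% of all. The Gli site GACCACCCA, on either strand, was in 0 of the 6 and in 0.253% of all. A match describes letters and not binding. The promoters of Kif7, whose signal differed most between genotypes, and of Gli3, the other holder of a half-site, are shown with that of Cdon, which had the opposite sign and no half-site in this window. Gli2, Smo and Ptch1 had no half-site either, and their log2 differences (mutant minus control) ran from −0.17 to 0.08, so no link of half-site and direction is read from this. Capitals mark the half-site, which begins 33 bases before the annotated start of Kif7 (chr7:79715658-79715957, minus strand) and 33 bases after that of Gli3 (chr13:15463473-15463772, plus strand). The Cdon window is chr9:35451826-35452125, plus strand.
Kif7: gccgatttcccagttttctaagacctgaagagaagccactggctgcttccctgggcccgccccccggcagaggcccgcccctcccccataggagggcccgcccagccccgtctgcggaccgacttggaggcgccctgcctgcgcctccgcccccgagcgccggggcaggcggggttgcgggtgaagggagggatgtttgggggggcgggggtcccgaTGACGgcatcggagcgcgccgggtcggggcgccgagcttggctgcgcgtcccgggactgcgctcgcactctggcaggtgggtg
Gli3: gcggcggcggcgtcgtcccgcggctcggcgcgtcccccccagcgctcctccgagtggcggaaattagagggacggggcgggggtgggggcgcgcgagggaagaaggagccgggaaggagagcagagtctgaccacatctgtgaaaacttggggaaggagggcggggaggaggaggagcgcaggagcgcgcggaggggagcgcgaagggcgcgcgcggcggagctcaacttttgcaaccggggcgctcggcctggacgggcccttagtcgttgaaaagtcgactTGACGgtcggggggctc
Cdon: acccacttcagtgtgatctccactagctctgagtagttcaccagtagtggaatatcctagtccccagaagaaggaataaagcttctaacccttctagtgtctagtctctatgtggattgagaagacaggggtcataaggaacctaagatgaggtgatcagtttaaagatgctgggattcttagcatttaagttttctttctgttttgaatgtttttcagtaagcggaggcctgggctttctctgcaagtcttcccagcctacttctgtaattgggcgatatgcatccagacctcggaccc

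Values are the authors' scaled signals on a linear scale, and differences are mutant minus control in log2(signal + 1) with the standard error (SE) of the limma fit, for 3 pools per genotype. Among the members, Kif7 was 2.80-fold lower in mutant, Cdon and Boc were up to 1.37-fold and 1.54-fold higher, 1 Gli3 probe set was 1.22-fold lower, and Shh, Ptch1 and Smo lay close to control (1.05-fold at most). As a count only, adjusted p by limma (Benjamini-Hochberg over 19551 probe sets) was under 0.05 for 1 of the 13 probe sets, that of Kif7, beside 0.558% of all probe sets (0.24% higher and 0.317% lower in mutant). All 3 mutant pools lay above all 3 control pools for 2 of the 13, beside 10.9% of all probe sets, and below them for 2 of the 13, beside 8.19%. Because the members were picked on this contrast, nothing is read from these counts. The median difference was 0.01 over the 13 probe sets and 0.03 over all, and 7 of 13 were positive beside 55.1% of all. In pooled tissue, fewer cells of a type and less RNA per cell cannot be told apart.

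**Figure D1:**
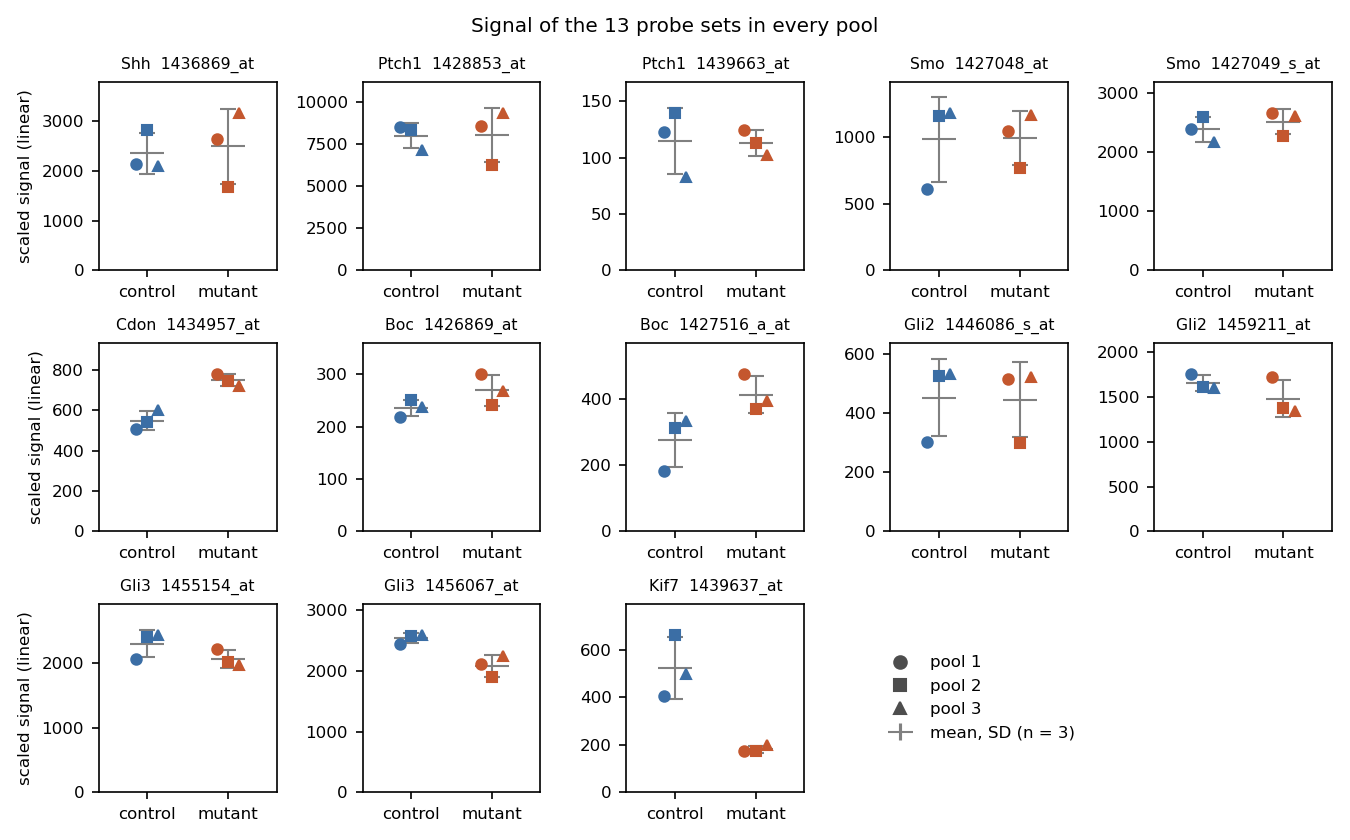
Scaled signal (linear, each panel with its own axis from 0) of the 13 probe sets in the 3 control and 3 mutant pools, with the mean and SD of each genotype. The genotypes do not overlap for Kif7, for Cdon, for 1 of 2 Boc probe sets and for 1 of 2 Gli3 probe sets, and overlap for the other 9.

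Some features of the whole set of arrays bear on these values. Array medians lay between 491 and 535. The 3' to 5' ratio of the spiked dap transcript parted control 1, mutant 1 and mutant 2 (19.6 to 23.8, called high-ratio arrays here) from control 2, control 3 and mutant 3 (10.2 to 12.2). Differences within each set are therefore given beside the results, and each rests on 1 pool of 1 genotype. Of 16 PSM and somite markers, 14 had a probe set, 10 of them with a mean at or above the 40th percentile of all probe sets (a geometric mean signal of 349). Of the 14, 13 had negative differences (median −0.46), 1 fell and 1 rose by the test, and 8 had an unadjusted p under 0.05, a share to read beside 12.8% of all probe sets. Tbx6 and Dll1 had the smallest p of the uncalled ones. The PSM transcription factor Tbx6 read 501, 607 and 541 in control and 297, 275 and 412 in mutant (limma adjusted p = 0.108). The Notch ligand Dll1 read 3089, 3497 and 3267 in control and 1743, 1590 and 2844 in mutant (limma adjusted p = 0.142). Mesp1 (−0.09), Meox1 (−0.04) and Tcf15 (−0.11) differed little, and their groups overlapped. Of these markers, Ripply2, which sets the somite boundary, fell (log2 difference −1.56, SE 0.15, limma adjusted p = 0.000987), and the dorsal somite factor Pax3 rose (0.94, SE 0.16, limma adjusted p = 0.0299). The Pax3 call was lost without control 2, control 3, mutant 1 or mutant 2 (limma adjusted p from 0.0823 to 0.186), and with no intensity trend (0.0692).

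Shh, the ligand, differed little between genotypes and much between pools. Its signal was 2133, 2832 and 2096 in control pools 1, 2 and 3 and 1671 in mutant 2, against 2643 and 3166 in mutant 1 and mutant 3. The genotypes overlapped fully, with mutant 2 the lowest and mutant 3 the highest of the 6 pools. The log2 difference was 0.05 (SE 0.22), a ratio of 1.03 with a 95% interval of 0.741 to 1.44, and leaving out 1 array moved it between −0.15 and 0.31. PSM is not known as a source of Shh. Markers of its known sources were measured: of 5 measured genes of the notochord and floor plate list, 4 had positive differences, and their summed signal was 2598 to 3223 in control and 3540 to 4960 in mutant. Much of that sum was Krt19, which the surface ectoderm list also holds. Without Krt19, a choice made after seeing the data, the sums overlapped: 2208, 2498 and 1865 in control and 2896, 1812 and 2595 in mutant, with mutant 2 the lowest as for Shh. Foxa2, a factor of notochord, floor plate and endoderm, read 385, 352 and 289 in control and 550, 316 and 490 in mutant (0.37, SE 0.22, limma adjusted p = 0.516). Foxa1, of endoderm and floor plate, had 0.27 (SE 0.20, limma adjusted p = 0.623). T, Noto, Foxj1, Chrd and Nog were not analysed here. The part of these tissues in the Shh signal was not tested.

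Ptch1, the Shh receptor and itself a Gli target, overlapped between genotypes in both of its probe sets. The probe set 1428853_at read 8484, 8331 and 7162 in control and 8541, 6229 and 9336 in mutant. The mutant pools enclosed the control pools, again with mutant 2 lowest and mutant 3 highest. The log2 difference was −0.01 (SE 0.15), and the 95% interval of the ratio, 0.793 to 1.25, bounds what 3 pools could show. The high-ratio arrays gave −0.22 and the rest 0.27. The second probe set, 1439663_at, read 82.4 to 140 in control and 102 to 125 in mutant, with a mean at the 13.6th percentile of all probe sets. It correlated with the first by r = 0.29 over the 6 arrays, which share their labelling and scaling, and its groups overlapped too.

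Smo, the signal transducer that Ptch1 holds back, also overlapped between genotypes in both probe sets. The probe set 1427049_s_at, of a kind that can cross-hybridise, read 2395, 2599 and 2177 in control and 2668, 2278 and 2613 in mutant (0.08, SE 0.12). The other, 1427048_at, read 615, 1159 and 1184 in control and 1051, 770 and 1169 in mutant (0.05, SE 0.25). In this second one control 1 and mutant 2 were low, and the other 4 pools lay between 1051 and 1184. The high-ratio arrays gave 0.55 and the rest −0.00, and leaving out control 1 turned it to −0.25, so its sign hung on single pools.

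Cdon and Boc are related immunoglobulin and fibronectin repeat proteins that bind Shh and present it to Ptch1, and both were higher in mutant. Cdon read 506, 542 and 600 in control and 781, 744 and 723 in mutant. Every mutant pool exceeded every control pool, the lowest mutant value being 1.2-fold the highest control value. The log2 difference was 0.45 (SE 0.13). It was 0.59 in the high-ratio arrays and 0.34 in the rest, and it stayed between 0.39 and 0.51 when 1 array was left out.

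For Boc, the probe set 1427516_a_at read 182, 312 and 334 in control and 475, 370 and 394 in mutant. The groups did not overlap, but control 1 lay far under the other control pools. The log2 difference was 0.62 (SE 0.23), at 1.2 in the high-ratio arrays, where control 1 is the only control, and 0.29 in the rest, and it was 0.35 without control 1. The second Boc probe set, 1426869_at, read 219, 250 and 238 in control and 301, 242 and 268 in mutant, with an overlap between control 2 and mutant 2 (0.19, SE 0.17). The 2 Boc probe sets followed each other over the 6 arrays with r = 0.86, and both had a mean below the 40th percentile.

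Cdon and Boc are also made in the early neural tube, so neural and epithelial markers were measured in the same pools. Of 8 measured neural tube markers 7 had positive differences and 0 passed the test. Of the 8, 3 had an unadjusted p under 0.05 (12.8% over all probe sets). The genotypes overlapped in their summed signal, which was 7725 to 9827 in control and 7998 to 11220 in mutant, mutant 2 lying below control 2 and control 3. The proneural factor Neurog2 had 0.91 (SE 0.21, limma adjusted p = 0.101) and the neural and eye factor Pax6 had 0.68 (SE 0.19, limma adjusted p = 0.149). All 10 surface ectoderm markers had positive differences and 2 passed, Krt19, a keratin of simple epithelia that also marks notochord (1.12, SE 0.20, limma adjusted p = 0.0458), and the adhesion gene Epcam (0.60, SE 0.11, limma adjusted p = 0.0400). Krt19 and Epcam each lost the call without control 2, control 3, mutant 1 or mutant 2 (limma adjusted p from 0.127 to 0.221), and Epcam also without mutant 3 (0.0602). Summed surface ectoderm signal was 15546 to 17803 in control and 23785 to 25107 in mutant. The next in this list were Perp, a desmosome gene (1.24, limma adjusted p = 0.0601), and the ectoderm factor Tfap2c (0.81, limma adjusted p = 0.0708). No marker was at 0, and the part of these tissues in the Cdon and Boc values was not tested.

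The transcription factors Gli2, the main activator, and Gli3, the main repressor, had small negative differences, that of 1 Gli2 probe set near 0 and imprecise. The Gli2 probe set 1459211_at read 1754, 1604 and 1602 in control and 1716, 1379 and 1341 in mutant (−0.17, SE 0.13). Mutant 1 lay among the control pools and the other mutant pools lay below them. The other Gli2 probe set, 1446086_s_at, read 301, 524 and 532 in control and 514, 300 and 523 in mutant (−0.02, SE 0.27), with the same low pools, control 1 and mutant 2, as Smo 1427048_at. The 2 Gli2 probe sets did not follow each other (r = 0.01 over the 6 arrays), although the annotation lists the same source sequence for both.

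For Gli3, the probe set 1456067_at read 2441, 2571 and 2590 in control and 2112, 1893 and 2244 in mutant. All mutant pools lay below all control pools, by a gap of 1.09-fold between the nearest values. The log2 difference was −0.29 (SE 0.11), at −0.29 in the high-ratio arrays and −0.20 in the rest, and it ranged from −0.34 to −0.22 when 1 array was left out. The probe set 1455154_at read 2066, 2403 and 2432 in control and 2223, 2010 and 1967 in mutant (−0.15, SE 0.12). Its sign over all pools was the same, but the groups overlapped and the high-ratio arrays gave 0.03. The 2 Gli3 probe sets correlated with r = 0.66.

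Kif7, the vertebrate kinesin that organises the cilium tip and controls Sufu and Gli there, showed the largest difference among the 13 probe sets. Its only probe set, 1439637_at, read 404, 662 and 499 in control and 172, 175 and 199 in mutant. The lowest control pool was still 2.03-fold the highest mutant pool, and the mutant pools lay close together (182 ± 14.8, SD, n = 3) while the control pools were spread (522 ± 131, SD, n = 3). The log2 difference was −1.49 (SE 0.20), −1.21 in the high-ratio arrays and −1.53 in the rest, and it lay between −1.66 and −1.30 when 1 array was left out. Its mean was at the 36.7th percentile of all probe sets, so a filter at the 40th percentile removes it, and detection calls were not used here.

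**Figure D2:**
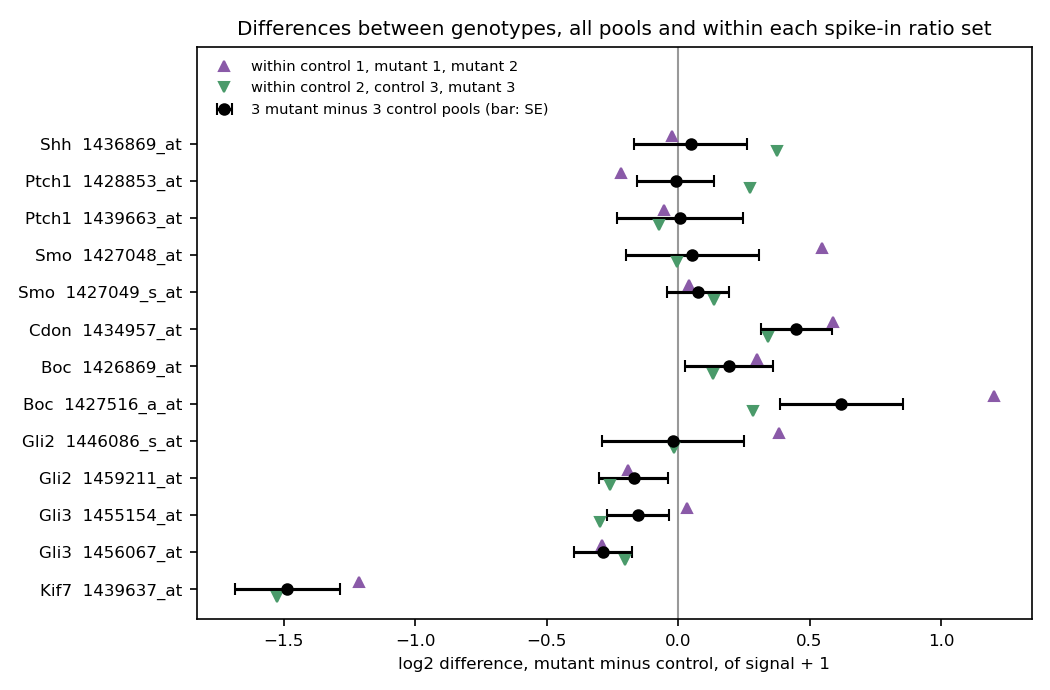
Log2 difference, mutant minus control, of each probe set over all pools (circles, bars are the SE) and within the 2 sets of arrays parted by the dap spike-in ratio (triangles). Kif7 lies at −1.49 with both sets at −1.21 or below, Cdon and Boc lie to the right of 0 in both sets, and the Shh and Ptch1 1428853_at values of the sets lie on opposite sides of 0.

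The direct neighbours of Kif7 on its chromosome were looked up. In RefSeq's gene table (GRCm38.p6) the span of Ticrr, a factor for starting DNA replication, overlaps that of Kif7, and Plin1 and Pex11a follow on the other side. Ticrr read 466, 535 and 517 in control and 470, 409 and 444 in mutant (−0.20, SE 0.14, limma adjusted p = 0.611), and its groups overlapped at the value of mutant 1. Pex11a, a peroxisome division gene, had −0.13 and 0.08 in its 2 probe sets (SE 0.18 and 0.18, limma adjusted p = 0.807 and 0.885). Plin1 was not analysed here. The 5 named probe sets above the 40th percentile whose signals most resembled Kif7 over the 6 arrays were those of Lsm14a (r = 0.994), Rbms2 (0.992), Hmgcs1 (0.991), Nlk (0.990) and Lclat1 (0.989). These r were taken over both genotypes without centring, so they also hold the genotype difference. Each of the 5 was lower in all 3 mutant pools than in any control pool, as were 8.19% of all probe sets. Each had its highest value in control 2, as Kif7 did. Hmgcs1, an enzyme of sterol synthesis, read 7926, 10258 and 9126 in control and 5418, 4961 and 5934 in mutant (−0.74, SE 0.12) and Lclat1, a lysocardiolipin acyltransferase, had −0.84 (SE 0.15). The other 3 had −0.20 to −0.40. These genes were picked for their likeness to Kif7, so no test is given for them.

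**Figure D3:**
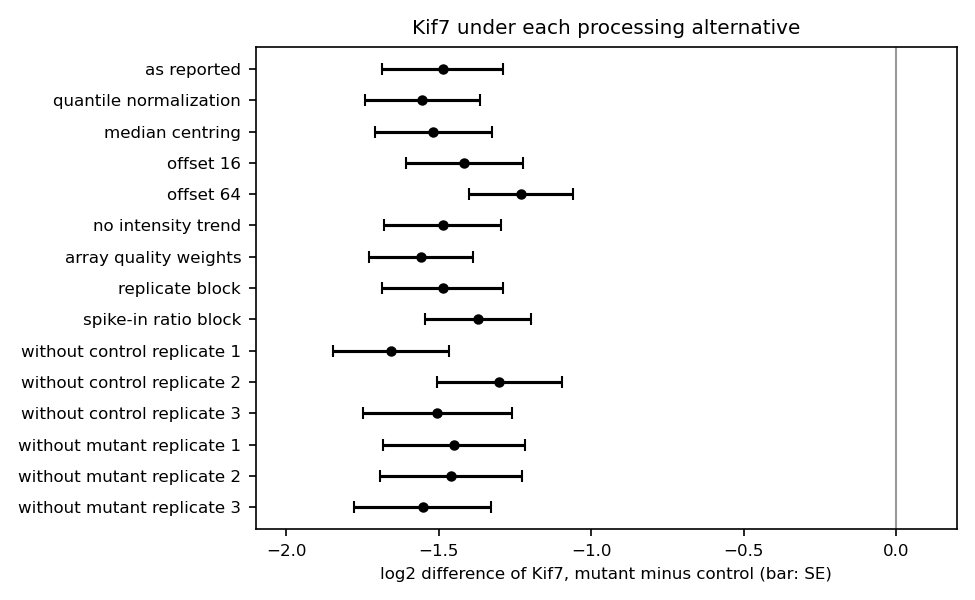
Log2 difference of Kif7 (bars are the SE) as reported and under the 14 alternatives in which its probe set was tested. All values lie between −1.66 and −1.23.

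Among the 6 pools, Shh, its receptor Ptch1 (1428853_at) and the Gli target Gli1 were all lowest in mutant 2 and highest in mutant 3. Their order among the control pools differed: Shh was highest in control 2, Ptch1 in control 1 and Gli1 in control 3. Gli1 read 256, 341 and 375 in control and 324, 217 and 453 in mutant, and its genotype difference was −0.01 (SE 0.26, limma adjusted p = 0.989). Over the 6 pools, in log2 signal, Ptch1 correlated with Shh by Pearson's r = 0.89 (exact permutation p = 0.0111, adjusted over 8 relations 0.0889) and Spearman's rho = 0.83 (exact p = 0.0583, adjusted 0.35). The relation did not pass the correction and was weaker without mutant 2 and mutant 3, the pools farthest from the median of Shh (r = 0.55). Smo gave r = 0.83 (exact p = 0.0556, adjusted 0.148; rho 0.77, exact p = 0.103, adjusted 0.35) and kept r = 0.88 without those pools. Gli1 gave r = 0.81 (exact p = 0.05, adjusted 0.148; rho 0.66, exact p = 0.175, adjusted 0.35) and 0.22 without them. Foxa2 gave r = 0.67 (exact p = 0.144, adjusted 0.289; rho 0.66, exact p = 0.175) and 0.48 without them. Cdon, Boc, Gli2 and Gli3 had r between −0.01 and 0.35 with Shh, with exact p from 0.494 to 0.989 and rho from −0.09 to 0.20. The genotypes did not overlap for Cdon or for the Boc and Gli3 probe sets used, so their pooled r also holds the genotype difference. With each genotype centred on its own mean, r with Shh was 0.89 for Gli3, 0.90 for Ptch1, 0.86 for Smo, 0.82 for Gli1 and 0.76 for Foxa2. It was 0.30 for Boc, 0.04 for Gli2 and −0.12 for Cdon, all as a description of 6 arrays that share their labelling and scaling. Gli1 and Foxa2 were added after their values were seen. Kif7 parts the genotypes widely, so no pooled r with Shh was taken for it. Each set of arrays parted by the spike-in ratio held 3 pools, too few for a value within it.

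**Figure D4:**
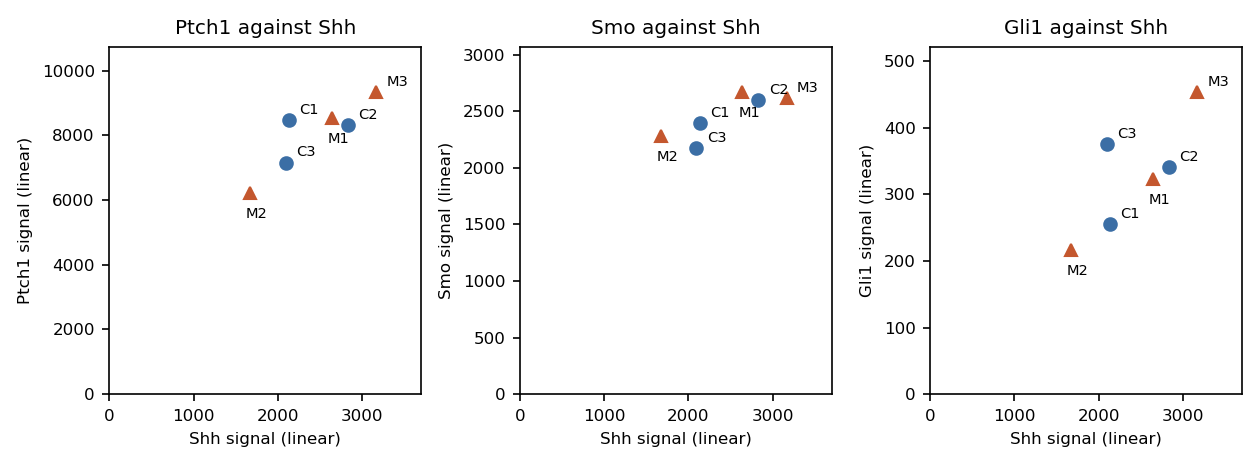
Scaled signals (linear) of Ptch1, Smo (1427049_s_at) and Gli1 against that of Shh in the 3 control (C, circles) and 3 mutant (M, triangles) pools. Mutant 2 has the lowest Shh (1671) and mutant 3 the highest (3166), and the genotypes intermingle.

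The rest of the pathway was followed in lists that left out the 8 members, with 1 probe set per gene. Of 39 measured genes for release and reception of ligand, Gli regulation and mesodermal targets, 1 fell, 0 rose and 38 did not pass, beside 0.317% lower and 0.24% higher over all probe sets. The 39 had a median difference of −0.10 and 28 negative values, against 0.03 and 55.1% positive over all probe sets. The high-ratio arrays gave a median of −0.03 and the rest −0.10. A block for the spike-in ratio gave −0.05 and 22 negative values.

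In the list of ligands and their release and binding, 0 of 8 genes passed, and 1 had an unadjusted p under 0.05 (12.8% over all probe sets). That was Gpc4, a glypican of the cell surface, at 549, 686 and 791 in control and 802, 1021 and 1101 in mutant (0.53, SE 0.18, limma adjusted p = 0.235). Lrp2, a large endocytic receptor that binds Shh in the neural tube, read 471 to 535 in control and 595 to 636 in mutant (0.28, SE 0.13, limma adjusted p = 0.431). The glypicans Gpc6 and Gpc3, of which Gpc3 competes for Hedgehog ligand, had −0.26 (limma adjusted p = 0.442) and −0.19 (limma adjusted p = 0.579). Dhh, Scube1 and Scube2 were not analysed here. For reception, 0 of 6 genes passed, also with 0 at an unadjusted p under 0.05. The third co-receptor, Gas1, read 2502, 3132 and 2569 in control and 4116, 3216 and 2653 in mutant (0.27, SE 0.16, limma adjusted p = 0.527), so all 3 mutant pools exceeded control 1 and control 3 but only mutant 1 stood well apart. The high-ratio arrays gave 0.54 and the rest −0.10. Gpr161, a ciliary receptor that raises cyclic AMP and restrains the pathway, had −0.32 (limma adjusted p = 0.414), Arrb1, a beta-arrestin, −0.26 (limma adjusted p = 0.523) and Evc2, a ciliary partner of Smo, 0.16 (limma adjusted p = 0.826). Hhip, a target that binds ligand, was not analysed here.

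Of 14 genes that regulate Gli proteins, 0 passed and 2 had an unadjusted p under 0.05 (12.8% over all probe sets), while 13 had negative differences with a median of −0.16. The count of negative values was 12 after quantile normalization, 13 after median centring and 9 with the spike-in ratio block. Spop, a ubiquitin ligase adaptor that targets Gli2 and Gli3 for degradation, read 1524, 1660 and 1314 in control and 1047, 1005 and 1125 in mutant (−0.50, SE 0.13, limma adjusted p = 0.133). Prkar1a, a regulatory subunit of protein kinase A, read 3679, 4006 and 3911 in control and 2919, 3036 and 3593 in mutant (−0.29, SE 0.11, limma adjusted p = 0.324). The groups did not overlap for Spop or for Prkar1a. The catalytic subunit Prkaca had −0.22 (limma adjusted p = 0.541), the kinase Stk36 −0.33 (limma adjusted p = 0.556) and Sufu, the partner of Kif7 in holding Gli back, −0.08 (SE 0.19, limma adjusted p = 0.908).

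Of 12 mesodermal targets, 1 fell, and 8 had negative differences with a median of −0.03. It was Foxf1, a forkhead factor of lateral and splanchnic mesoderm, which read 1921, 2004 and 2398 in control and 988, 1082 and 1424 in mutant (−0.87, SE 0.16, limma adjusted p = 0.0458). Its groups did not overlap, at −0.89 in the high-ratio arrays and −0.62 in the rest. Without control 2, control 3, mutant 1 or mutant 2 its adjusted p was 0.122, 0.182, 0.231 and 0.218, and with a filter at the 40th percentile 0.0503. Of endothelial markers, all 7 measured had negative differences and 1 fell, Kdr, the VEGF receptor (−0.82, SE 0.14, limma adjusted p = 0.0345), and their summed signal was 10255 to 11154 in control and 5436 to 8233 in mutant. The Kdr call was lost when any array but control 1 was left out (limma adjusted p from 0.0572 to 0.169), and with no intensity trend (0.0635). Aplnr, the apelin receptor, had −0.72 (limma adjusted p = 0.0873) and Fli1, an Ets factor, −0.77 (limma adjusted p = 0.104). Much of the sum was Aplnr, at 7134 to 8119 in control and 3500 to 5730 in mutant. Tek and Cdh5 differed little, at −0.10 and −0.06 (limma adjusted p = 0.875 and 0.943). Their groups overlapped, and the high-ratio arrays gave 0.29 and 0.35. The part of these cells in the Foxf1 value was not tested. Foxc2, a forkhead factor of somites, had −0.75 (SE 0.31, limma adjusted p = 0.343), its relative Foxf2 −0.36 (limma adjusted p = 0.505), the survival gene Bcl2 −0.32 (limma adjusted p = 0.478) and cyclin D2, Ccnd2, 0.12 (limma adjusted p = 0.632). The sclerotome targets Pax1, Pax9 and Nkx3-2, with Myf5 and Foxl1, were not analysed here.

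**Figure D5:**
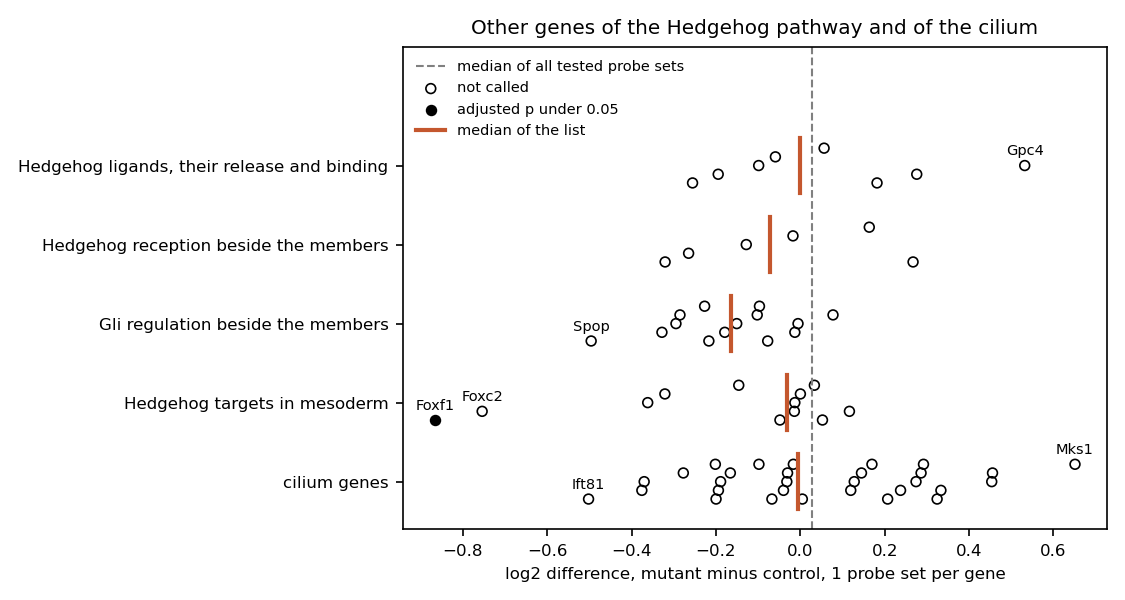
Log2 difference, mutant minus control, of each measured gene in the 4 Hedgehog pathway lists and the cilium list, with 1 probe set per gene, the median of each list and the median of all tested probe sets. Foxf1 is the only filled point, the rest having an adjusted p of 0.05 or more, and 13 of 14 Gli regulation genes lie below 0.

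The cilium, in which Kif7 acts, was followed by 30 measured genes of intraflagellar transport, the transition zone and related functions. Of these 0 passed by limma, 8 had an unadjusted p under 0.05 (12.8% over all probe sets), and 15 were positive and 15 negative, with a median of −0.01. Mks1, a transition zone protein, read 216, 198 and 231 in control and 344, 311 and 361 in mutant (0.65, SE 0.16, limma adjusted p = 0.114). Ift81, an intraflagellar transport subunit, read 967, 898 and 828 in control and 606, 650 and 642 in mutant (−0.50, SE 0.13, limma adjusted p = 0.129). The groups of both were apart, in opposite directions. Arl3, a small GTPase that unloads ciliary cargo, had 0.29 (limma adjusted p = 0.235) and Ift140, of the transport complex that returns cargo, −0.37 (limma adjusted p = 0.281).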

How the data were processed

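RNA was labelled with a 3' IVT kit and hybridized to Affymetrix mouse expression arrays. The authors deposited 1 linear intensity (scaled signal) per probe set and array, made with MAS5 in Affymetrix Expression Console, per the submitters' processing notes. Versions, scaling target and genome build are not given in the sources used here, and scanner files and detection calls were not used. Of 19606 probe sets 55 were array controls. The other 19551 were tested, low signals included, and the platform's annotation table gave 17348 of them 1 gene symbol, 494 several and 1709 none.

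Signals were analysed as log2(signal + 1) with limma (version 3.58.1, R 4.3.3), a linear model on genotype with an intensity trend in the empirical Bayes step, two-sided, and Benjamini-Hochberg adjustment over all 19551 probe sets. The fit was tested on simulated data. A gene outside the members was represented by its probe set of highest mean. Those of Lrp2, Prkaca, Ift81, Sox17, Tfap2c and Hbb-bh1 were _x_at or _s_at probe sets, which can cross-hybridise. Members, lists and the spike-in ratio split were chosen with earlier results of these data known. Named genes were all members, called genes of the lists, Gli1, Hhip, Gas1 and Sufu where measured (a further gene of this rule is not reported here), up to 4 further genes of each pathway list and 2 of each marker list by smallest p, and the 5 probe sets most correlated with Kif7. Tek and Cdh5 were added after their values were seen. Of the marker lists, gut endoderm (9 measured) had 1 higher and 1 lower call, and blood (6 measured) had 0, with 4 at an unadjusted p under 0.05. Replicate numbers were checked for pairing: residuals of equal numbers correlated by 0.18, −0.27 and 0.27 between genotypes, so pools were not paired. Tried as alternatives were median centring, quantile normalization, filters at the 40th and 60th percentile, offsets of 16 and 64, no trend, array weights, the replicate block, the spike-in ratio block, adjusted p under 0.1, no _x_at or _s_at probe sets, and leaving out each array. The number of arrays limits the precision.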

Additional observations from a re-analysis of the deposited data

How the results depend on the processing

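Of the 13 member probe sets, 198 values under alternatives all moved by less than 1 SD between replicates. Differences near 0 still changed sign among them. Shh ran from −0.15 to 0.31, Ptch1 1428853_at from −0.13 to 0.16 and Ptch1 1439663_at from −0.21 to 0.23. Smo 1427048_at ran from −0.25 to 0.27 and Gli2 1446086_s_at from −0.29 to 0.24. The count of called members, 1, fell to 0 with a filter at the 40th or 60th percentile, which removes the Kif7 probe set, and was 0 to 1 with 1 array left out (0 without control 3, mutant 1 or mutant 2). The count of other Hedgehog pathway genes, 1, was 0 with quantile normalization, with either filter and with no intensity trend, 3 with the spike-in ratio block and 0 to 1 with 1 array left out. The cilium count, 0, was 3 with array quality weights and 2 with the spike-in ratio block. Over all probe sets, 109 calls became 48 with the filter at the 60th percentile, 47 with no intensity trend, 902 with array quality weights, 680 with the spike-in ratio block, 301 at adjusted p under 0.1, and 33 to 206 with 1 array left out. With the replicate block the count was 218, and the calls of members, pathway and cilium genes were 1, 1 and 0. The uncalled differences of Gli1, Sufu and Evc2 changed sign: Gli1 was 0.20 and Sufu 0.084 with the spike-in ratio block, and Evc2 was −0.068 with array quality weights. With 1 array left out, Gli1 ran from −0.27 to 0.26, Sufu from −0.29 to 0.062 and Evc2 from −0.12 to 0.41. The causes were not tested. Arrays give no depth. Kif7, both Boc probe sets and Ptch1 1439663_at lay below the 40th percentile, where signal over background is least sure. Of the other named genes, Gli1, Stk36, Foxf2, Bcl2, Mks1, Neurog2, Pax6, Tfap2c and Pex11a lay below it too.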

Other observations

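Gut endoderm is a source of Shh, and 8 of its 9 measured markers had positive differences (median 0.48), with a summed signal of 7157 to 8152 in control and 9342 to 11055 in mutant. Much of that sum was Epcam (1938 to 2033 in control, 2797 to 3191 in mutant) and Cdh1 (1655 to 2367 in control, 2620 to 3469 in mutant). The surface ectoderm list also holds both, and no sum without them was taken. Epcam rose, a call lost under the alternatives named with it above, and Sox17, an endoderm and endothelial factor, fell (−1.06, SE 0.20, limma adjusted p = 0.0492). The epithelial genes Cdh1 and Cldn7 had 0.63 (limma adjusted p = 0.114) and 0.50 (limma adjusted p = 0.215). Of 6 measured blood markers 5 had positive differences, among them the embryonic globin Hbb-bh1 (0.50, limma adjusted p = 0.108), with 0.71 as the list's median in the high-ratio arrays and 0.02 in the rest, and the blood and endothelial factor Tal1 had −0.74 (limma adjusted p = 0.201). Of these lists 1 gene rose and 1 fell by limma, and the Sox17 call was lost without control 2, control 3, mutant 1 or mutant 2 (limma adjusted p from 0.142 to 0.181). The Sox17 call was also lost with no intensity trend (limma adjusted p = 0.101) and with the filter at the 40th percentile (0.0507).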
